A study of Mus musculus with 12 samples.

Results

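The extracellular matrix of the lung is the protein scaffold that fibroblasts and related mesenchymal cells lay down around airways, vessels and alveoli. A list of 45 mouse genes was followed here: 15 collagen genes, 9 genes of elastic fibres and their cross-linking, 6 proteoglycan genes, 7 matricellular genes and 8 genes that mark fibroblasts or their regulators. A gene belonged to the list by name, and it was measured by the probe set that carried its single gene symbol and had the highest mean log2 signal over 12 arrays. Of the 45 genes 44 had such a probe set, out of 18193 genes on the array, and all 44 passed the filter on low signals. Fbn1, the fibrillin gene, had none and has no value here.

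RNA came from whole lung of mice aged 8 to 10 weeks, taken 8 h after surgery, with 3 arrays in each of 4 groups. Wild-type mice, labelled Balb/c, had a sham operation or cecal ligation and puncture (CLP), in which the cecum is tied off and pierced so that gut bacteria cause sepsis. Mice labelled as PPTA knockout, for which the labels give no strain, had the same 2 operations, so genotype and strain cannot be told apart. The comparisons ask how CLP changes the lung in each genotype, and how the genotypes differ after each operation. The labels do not say that the 3 arrays of a group came from different animals, so a p-value reflects only how far these samples vary, possibly for technical reasons.

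As background, collagen chains are made as long precursors, hydroxylated and folded as triple helices inside the cell, cut outside it and then cross-linked by lysyl oxidases. Fibrillar collagens give tensile strength, network collagens line the basement membrane, and elastin wound around microfibrils gives the recoil of the breathing lung. Proteoglycans and matricellular proteins space these fibres and pass signals to cells, and inflamed tissue often lays down a provisional matrix rich in fibronectin and versican.

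The gene named in the genotype label did not follow it. PPTA is an older name of Tac1, and its first probe set gave signals of 2.80 to 16.1 on the 6 wild-type arrays and of 337 to 530.3 on the 6 arrays labelled as knockout, which goes against the label. Its other probe set gave 1.26 to 16.0 on all 12 arrays, and the labels do not say which part of the gene was removed, so neither checks the genotype. The groups are therefore called knockout-labelled, and every genotype direction below rests on that label. Array 3 of knockout-labelled sham stands apart: 646 probe sets exceeded both other arrays of its group by 2-fold or more and 758 lay 2-fold or more under both, against 13 to 202 and 64 to 471 on the other 11 arrays. Its correlation with those 2 arrays was 0.937 and 0.939, and theirs with each other 0.981. Differences without it are given for some genes only, among them Lox, Vcan and Lrat. Counts of calls without it are given for the knockout-labelled response, the difference of the responses and the genotypes after sham. All other differences that involve knockout-labelled sham include it. Ratios of 3-prime to 5-prime control signals ran from 1.28 to 1.63 for Actb and from 0.678 to 0.913 for Gapdh, and array medians from 31.1 to 38.4.

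**Figure D1:**
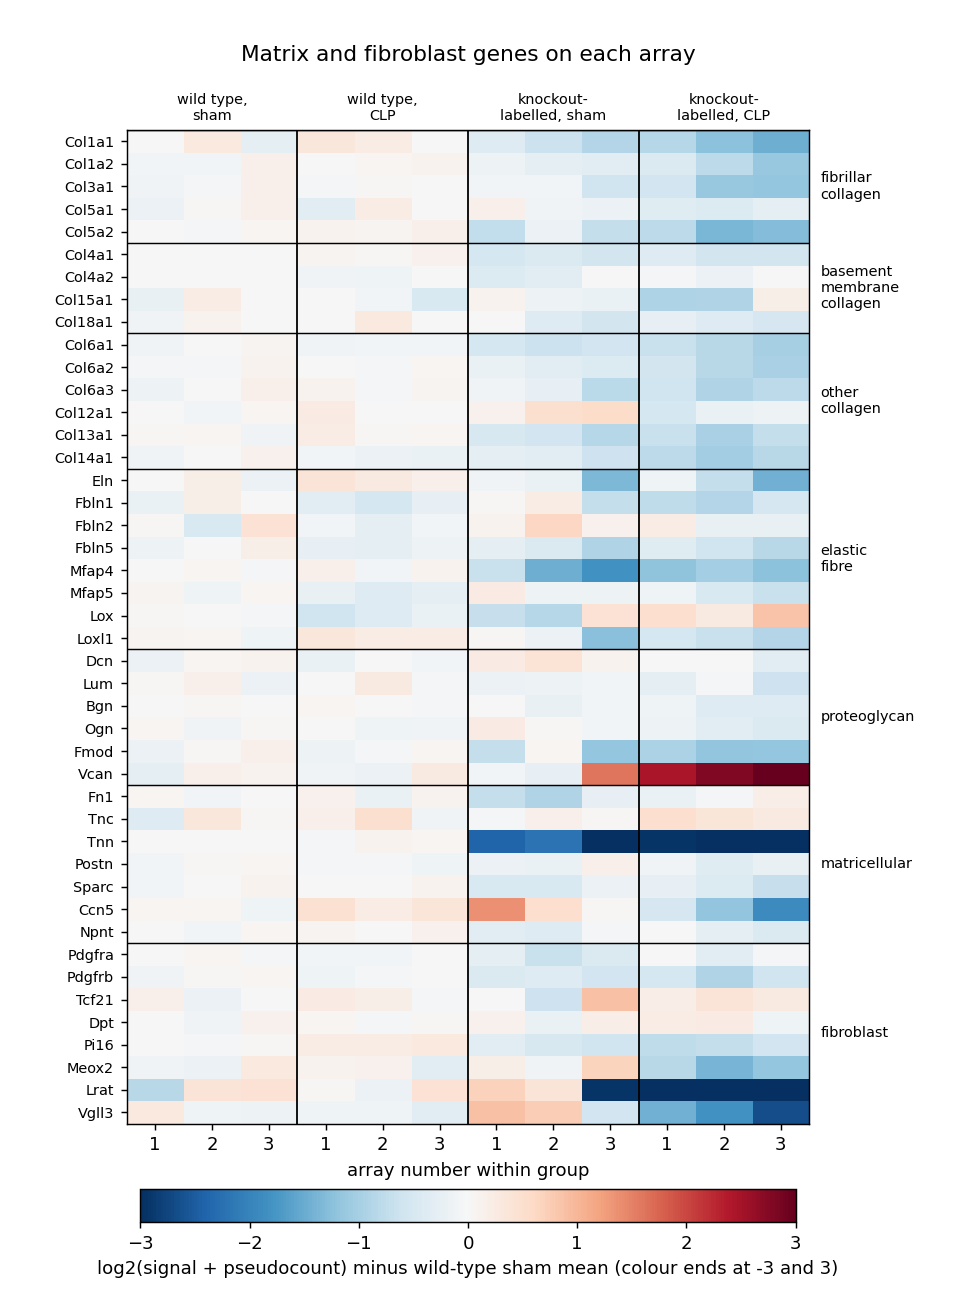
Each row is 1 of 44 genes and each column 1 of 12 arrays. Colour gives log2(signal + 3.47) minus the mean of the 3 wild-type sham arrays, red for higher and blue for lower. The 6 wild-type arrays are pale throughout, while the knockout-labelled arrays are mostly blue. Vcan is the strongest red exception after CLP, and others, such as Lox, are paler.

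Differences are given as log2 of the signal plus a pseudocount of 3.47, with the standard error (SE) of the limma fit and n = 3 arrays against 3, and a gene is called where its adjusted p over all 24574 tested probe sets is under 0.05. Folds are on the same scale, which understates the change of weak genes. In wild-type lung none of the 44 genes was called after CLP, and none had even an unadjusted limma p under 0.05. Over the 11859 genes tested, 1.1% were called up and 0.059% down in this comparison. The wild-type differences ran from -0.39 (Lox) to 0.35 (Ccn5) with a median of 0.011, against -0.031 over all genes. The 3 CLP arrays all lay above the 3 sham arrays for 5 genes (11.4% of 44) and all below for 4 (9.09%), near the background of 10.9% and 12.9% of all genes. With only the 2 wild-type groups in the model 1 gene, Lox, was called lower.

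In knockout-labelled lung 17 genes were called after CLP, 4 up (9.09%) and 13 down (29.5%), where 11.4% and 19.9% of all genes were called up and down. The 44 genes had a median difference of -0.24, against -0.11 over all genes. The split depends on how arrays are scaled: with each array centred on its own median, which moves the median over all tested probe sets from -0.12 to 0.10, 7 were up and 5 down, and with centring on the tested probe sets, median 0.0078, 5 and 9. Of all calls 35.6% were up as deposited, 70.4% with the first centring and 56.6% with the second. Centring on the array medians ended the calls of Col1a1, Col1a2, Col5a2, Col6a2, Col12a1, Col14a1, Dcn and Ogn, whose differences then stayed below 0. With only the 2 knockout-labelled groups in the model 4 calls remained, those of Vcan, Ccn5, Meox2 and Vgll3. The response differed between genotypes for 4 genes, 1 up (2.27%) and 3 down (6.82%), with a background of 1.86% and 3.13%, and for 2 up and 3 down with each array centred on its median.

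After sham surgery 8 genes were called lower in knockout-labelled lung (18.2% of 44) and 0 higher, where 3.89% of all genes were called lower and 4.87% higher. After CLP 25 genes were called lower (56.8%) and 2 higher (4.55%), where 18.7% of all genes were called lower and 13% higher. The median difference of the 44 genes was -0.29 after sham and -0.48 after CLP, while that of all genes was 0.013 and -0.057. The 3 knockout-labelled arrays all lay below the 3 wild-type arrays for 17 genes after sham (38.6%, background 14.6%) and for 29 after CLP (65.9%, background 28.7%). In whole lung a loss of cells that make these transcripts and less RNA per cell cannot be told apart. The comparisons share their control arrays, so their counts are not independent of each other. The genes were also chosen with earlier results of these data known, so a share above that of all genes is no independent support.

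**Figure D2:**
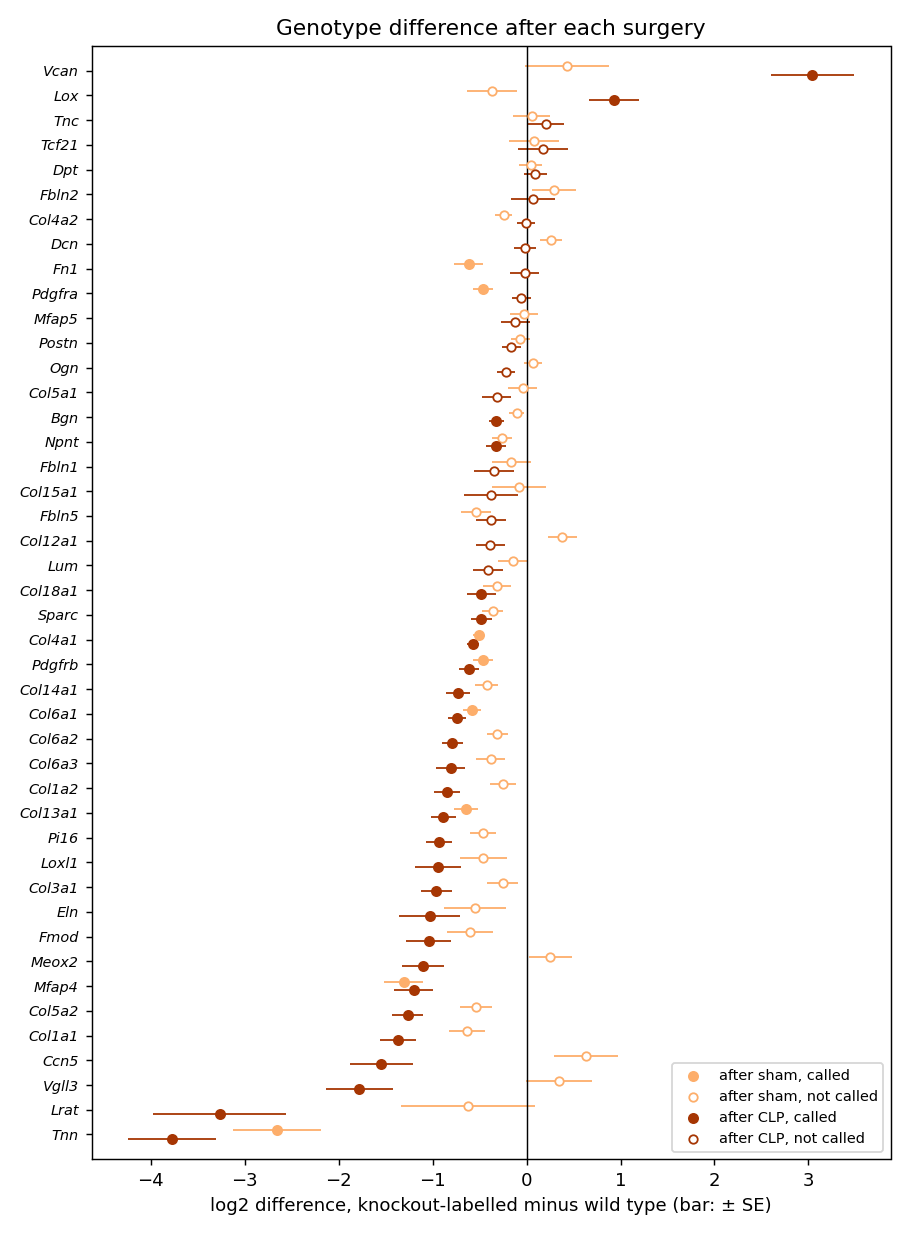
Points give the log2 difference, knockout-labelled minus wild type, for each of 44 genes after sham (light) and after CLP (dark), bars give ± SE, and filled points are called at an adjusted p under 0.05. Of the dark points 25 are filled on the left of 0 and 2, Vcan and Lox, on the right, while 8 light points are filled, all on the left.

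The 250 bases before the RefSeq start (assembly GRCm38.p6, 5-prime to 3-prime on the gene's strand) are shown for 2 fibrillar collagen genes and 3 fibroblast genes that fell, to set the start regions of collagen genes and of fibroblast genes that fell together side by side. Capitals mark 4 motifs, searched on both strands: the CCAAT box, the GC box written GGGCGG (which reads CCGCCC when it lies on the other strand), the TATA box written TATAAA (which then reads TTTATA) and the AP-1 element written TGANTCA. No match overlapped another.
Col1a2, type I collagen, chr6:4505368-4505617, plus strand: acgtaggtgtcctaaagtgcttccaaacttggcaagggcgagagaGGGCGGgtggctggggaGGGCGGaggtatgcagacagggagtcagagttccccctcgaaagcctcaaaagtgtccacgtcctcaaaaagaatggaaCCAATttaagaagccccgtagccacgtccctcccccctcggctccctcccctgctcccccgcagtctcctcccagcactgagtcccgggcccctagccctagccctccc
Col3a1, type III collagen, chr1:45311288-45311537, plus strand: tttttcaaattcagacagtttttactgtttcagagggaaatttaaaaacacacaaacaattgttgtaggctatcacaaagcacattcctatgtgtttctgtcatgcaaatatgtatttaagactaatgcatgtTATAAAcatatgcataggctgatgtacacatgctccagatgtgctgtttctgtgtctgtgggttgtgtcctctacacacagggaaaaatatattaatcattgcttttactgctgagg
Meox2, homeobox factor, chr12:37108290-37108539, plus strand: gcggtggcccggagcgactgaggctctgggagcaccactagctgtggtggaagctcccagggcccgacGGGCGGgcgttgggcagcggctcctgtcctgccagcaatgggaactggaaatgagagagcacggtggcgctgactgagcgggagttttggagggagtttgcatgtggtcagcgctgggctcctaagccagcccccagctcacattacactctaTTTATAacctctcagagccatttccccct
Vgll3, transcription cofactor, chr16:65814939-65815188, plus strand: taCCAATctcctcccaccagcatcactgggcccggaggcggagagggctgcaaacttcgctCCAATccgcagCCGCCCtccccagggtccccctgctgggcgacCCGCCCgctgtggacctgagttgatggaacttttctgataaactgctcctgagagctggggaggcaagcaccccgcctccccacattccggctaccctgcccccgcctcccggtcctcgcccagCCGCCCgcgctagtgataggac
Lrat, retinol esterification, chr3:82903975-82904224, minus strand: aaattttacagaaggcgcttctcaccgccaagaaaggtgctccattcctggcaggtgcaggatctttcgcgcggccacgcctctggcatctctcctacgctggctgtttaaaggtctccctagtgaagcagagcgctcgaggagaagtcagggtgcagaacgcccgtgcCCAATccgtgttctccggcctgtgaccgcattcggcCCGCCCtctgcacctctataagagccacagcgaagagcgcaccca

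Col1a2 held 1 CCAAT box, 109 to 105 bases before the start, and 2 GC boxes, and Vgll3 held 2 CCAAT boxes and 3 GC boxes. Meox2 held 1 GC box and, at 29 to 24 bases before the start, a TATA box on the other strand. Col3a1 was poor in G and C (35.2%, against 59.2% to 66.8% in the other 4) and held only a TATA box, 117 to 112 bases before the start, and Lrat held 1 CCAAT box and 1 GC box. Among 38 start windows of 31 of the 45 genes, 10 held the CCAAT box, 18 the GC box, 7 the TATA box and 1 the AP-1 element. Over 32851 windows of the same length these motifs were found in 33.8%, 32.7%, 12.4% and 6.75%. A match describes letters only.

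Fibrillar collagens form the cables of the matrix: Col1a1 and Col1a2 encode the chains of type I collagen, Col3a1 that of the finer type III fibrils, and Col5a1 and Col5a2 chains of type V, on which type I fibrils start. In knockout-labelled lung 4 of these 5 fell after CLP (80%, against 19.9% of all genes). The same 4 were lower than in wild-type CLP (80%, against 18.7%). In wild type Col3a1 had signals of 4114, 4303 and 4966 after sham and 4320.4, 4570.0 and 4401 after CLP. In knockout-labelled lung it had 4202, 4232 and 2919 after sham and 2974, 2010.0 and 1972 after CLP. The 3 knockout-labelled CLP arrays were lower than every wild-type array, but array 1 of them overlapped array 3 of knockout-labelled sham. It fell by 0.71 ± 0.16 (adjusted p = 0.0069), to 0.61 times its sham level, and lay at -0.96 ± 0.16, adjusted p = 0.0012 against wild-type CLP.

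Col1a1 had 444, 545 and 366 after sham and 565, 518 and 444 after CLP in wild type, and 342, 282 and 241 after sham and 245, 188 and 158 after CLP in knockout-labelled lung. All 6 knockout-labelled arrays were below all 6 wild-type arrays, and the 2 knockout-labelled groups overlapped by 1 array. The genotype difference was -0.64 ± 0.19, adjusted p = 0.058 after sham, not called, and -1.37 ± 0.19, adjusted p = 0.00031 after CLP, a fold of 0.387. Col5a2 had 783, 759.8 and 821, then 852, 828 and 875, in wild-type sham and CLP, and 474, 699.6 and 478, then 453, 301 and 320.2, in knockout-labelled sham and CLP. Its knockout-labelled CLP arrays were the lowest of all 12, at -1.26 ± 0.17, adjusted p = 0.00022 against wild-type CLP. Col1a2, with group means of 2557 ± 255 (SD) and 2661 ± 92.6 in wild-type sham and CLP and 2146 ± 138 and 1504 ± 365 in knockout-labelled sham and CLP, did the same (-0.85 ± 0.14, adjusted p = 0.00095). Col5a1 was called in no comparison (-0.32 ± 0.16 against wild-type CLP).

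The change from sham to CLP itself was -0.55 ± 0.19 for Col1a1, -0.54 ± 0.14 for Col1a2 and -0.61 ± 0.17 for Col5a2 (adjusted p = 0.044, 0.013 and 0.016). With each array centred on its median, Col1a1, Col1a2 and Col5a2 lost this call and Col3a1 kept it. In wild-type lung the same genes had 0.18 ± 0.19, 0.061 ± 0.14 and 0.11 ± 0.17, and Col3a1 -0.0056 ± 0.16. The difference between the 2 responses was not called for any of the 4 (adjusted p = 0.095 to 0.13). The second probe sets of Col1a1 and Col3a1 were lower against wild-type CLP too (-0.89 and -0.96, both called), as was that of Col1a2 (-0.75, called), while that of Col5a2 was at -0.16 ± 0.26, not called. For the change from sham to CLP in knockout-labelled lung, the second probe sets of Col1a1 and Col3a1 were called (-0.76 and -0.85) and those of Col1a2 (-0.33 ± 0.13, adjusted p = 0.074) and Col5a2 (-0.73 ± 0.26, adjusted p = 0.054) were not. Col3a1 and Col5a2 are neighbours on chromosome 1 with no protein-coding gene between them.

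**Figure D3:**
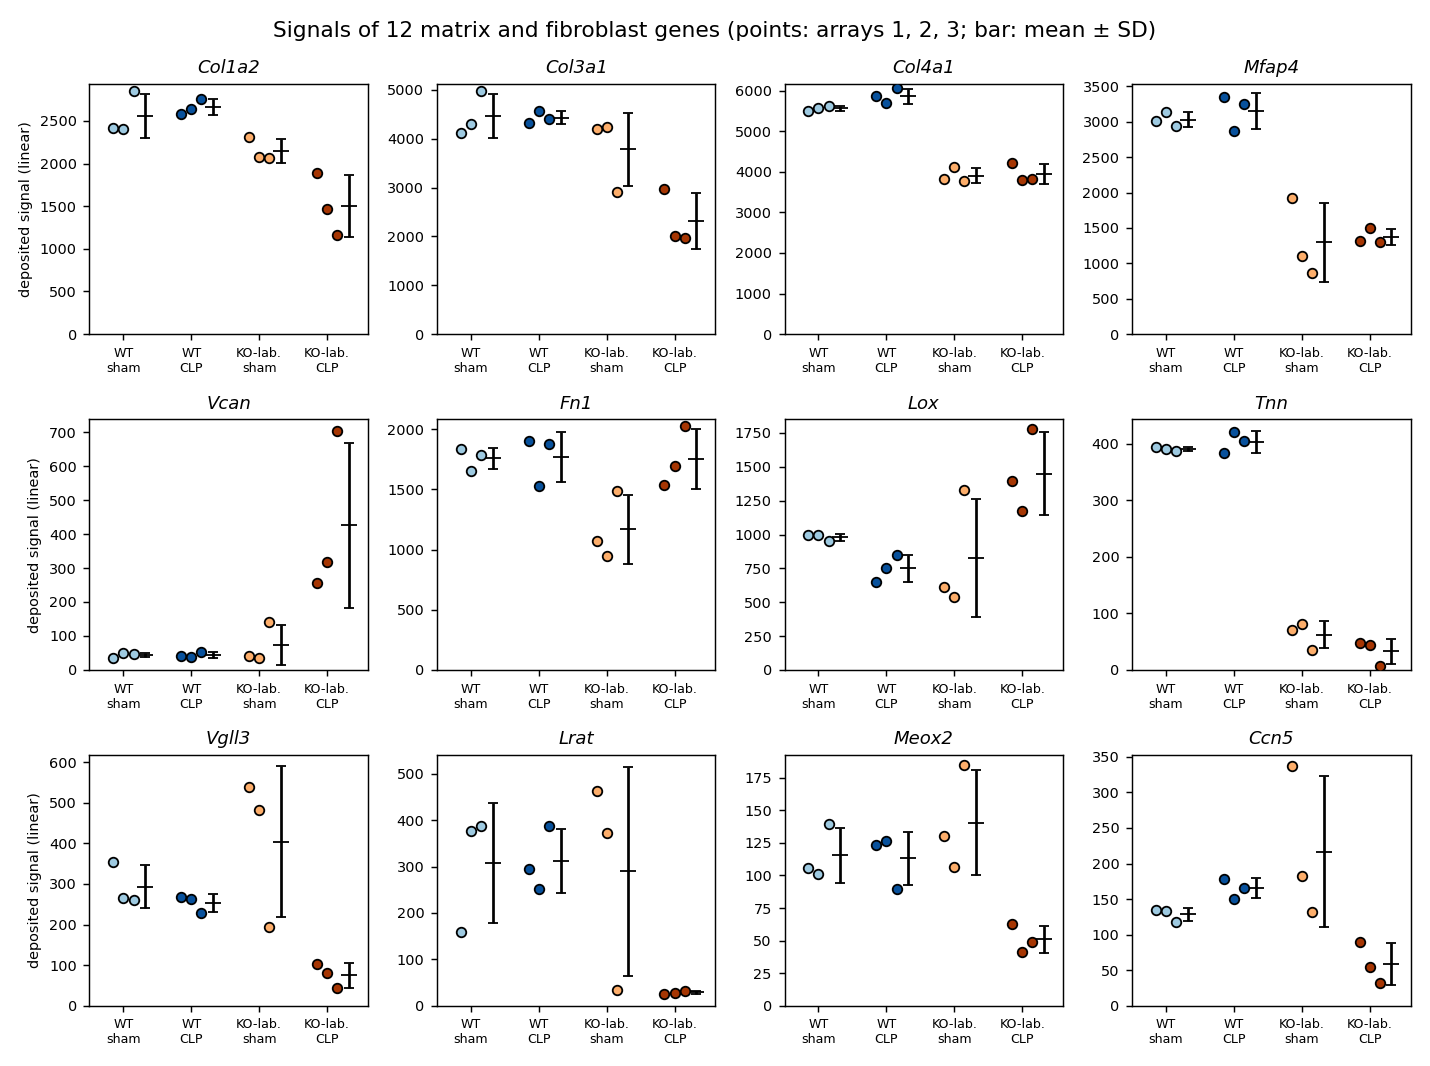
Deposited signals (linear scale, from 0) of 12 genes, with points for arrays 1 to 3 of each group and a bar for mean ± SD. WT is wild type and KO-lab. knockout-labelled. Col1a2 and Col3a1 are lowest after CLP in knockout-labelled lung, Col4a1, Mfap4 and Tnn are lower on all 6 knockout-labelled arrays, and Vcan is high on the 3 knockout-labelled CLP arrays.

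Basement membrane collagens build the sheet under epithelium and endothelium: Col4a1 and Col4a2 encode the 2 chains of its main network, and Col15a1 and Col18a1 link it to the tissue around it. Col4a1 was lower in knockout-labelled lung whatever the surgery, and Col4a2 was not called. Col4a1 had 5492, 5584 and 5617 after sham and 5857, 5685 and 6055 after CLP in wild type, and 3829.8, 4109.6 and 3777 after sham and 4221, 3801 and 3821 after CLP in knockout-labelled lung. The genotypes were separate on all arrays, and surgery moved the gene by 0.076 ± 0.061 and 0.015 ± 0.061, not called. The genotype difference was -0.51 ± 0.061, adjusted p = 0.00020 after sham and -0.57 ± 0.061, adjusted p = 5.4e-05 following CLP, folds of 0.702 and 0.673, and the second probe set gave -0.49 and -0.52, both called.

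The 2 genes lie head to head on chromosome 8, with starts 21 bases apart on opposite strands. Col4a2 had 2642 ± 21.8 (SD) and 2507 ± 132 in wild-type sham and CLP, and 2244 ± 329 and 2495 ± 161 in knockout-labelled sham and CLP, so its genotype difference was -0.25 ± 0.10 and -0.0079 ± 0.10. The log2 difference of Col4a1 minus Col4a2 within an array fell from 1.07 ± 0.014 (SD, n = 3) in wild type to 0.81 ± 0.24 in knockout-labelled lung after sham (difference -0.27), and from 1.23 ± 0.032 to 0.66 ± 0.11 after CLP (difference -0.56). After sham the 3 knockout-labelled arrays had 0.94, 0.96 and 0.53, and the difference was -0.13 without array 3, a comparison chosen after seeing the data. No array of 1 genotype overlapped the other in either surgery, and the two-sided exact permutation p was 0.1 each time, the smallest that 3 against 3 allows, so no threshold could be passed. Col18a1, from which the angiogenesis inhibitor endostatin is cut, was lower than in wild-type CLP (-0.48 ± 0.15, adjusted p = 0.033), and Col15a1 was not called in any comparison (-0.38 ± 0.29).

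Of the other collagens, Col6a1, Col6a2 and Col6a3 encode the chains of beaded microfilaments around cells, Col12a1 and Col14a1 coat the surface of fibrils, and Col13a1 spans the cell membrane. Against wild-type CLP 5 of these 6 were lower (83.3%, against 18.7% of all genes). Col6a1 and Col13a1 were lower after sham too (33.3%, against 3.89%). Col6a1 had 1219, 1326 and 1385 after sham and 1224, 1240.1 and 1238 after CLP in wild type, and 902, 838 and 884 after sham and 826, 738 and 654 after CLP in knockout-labelled lung. Every knockout-labelled array was below every wild-type array, with a difference of -0.58 ± 0.094, adjusted p = 0.0020 after sham and -0.74 ± 0.094, adjusted p = 0.00018 after CLP. Col6a2, its direct neighbour on chromosome 10, was at -0.79 ± 0.11, adjusted p = 0.00033, and Col6a3 at -0.81 ± 0.16, adjusted p = 0.0028, against wild-type CLP.

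Col13a1 had 376, 381 and 343 and then 426, 373 and 379 in wild-type sham and CLP, and 261, 244 and 199 and then 229, 184 and 222 in knockout-labelled sham and CLP. It too separated the genotypes on all arrays, at -0.64 ± 0.13 after sham and -0.88 ± 0.13 after CLP (adjusted p = 0.0086 and 0.00046). Col14a1 was lower than wild type after CLP (-0.73 ± 0.13, adjusted p = 0.0013), and not called after sham (-0.43 ± 0.13, adjusted p = 0.055). Within knockout-labelled lung Col6a2 (-0.48 ± 0.11), Col12a1 (-0.68 ± 0.15) and Col14a1 (-0.46 ± 0.13) fell after CLP (adjusted p = 0.0070, 0.0065 and 0.016), though the second probe set of Col6a2 was not called (-0.27 ± 0.13, adjusted p = 0.14). Col12a1 had 124, 159 and 167 in knockout-labelled sham and 77.6, 98.2 and 102 in knockout-labelled CLP, while wild type had 115, 107 and 119 after sham and 135, 115 and 115 after CLP. The knockout-labelled CLP arrays were below all wild-type arrays, and the sham arrays above all but 1 of them. Its other tested probe set gave 0.17 ± 0.23 for the same comparison, so its fall rests on 1 probe set.

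Elastic fibre genes moved in both directions. Eln encodes tropoelastin, the fibulin genes Fbln1, Fbln2 and Fbln5 and the microfibril genes Mfap4 and Mfap5 help assemble the fibre, and Lox and Loxl1 encode enzymes that cross-link elastin and collagen. Mfap4 had 3008, 3143 and 2941 after sham and 3346, 2871 and 3247 after CLP in wild type, and 1921, 1101 and 864 after sham and 1319, 1503 and 1295 after CLP in knockout-labelled lung. It was lower on every knockout-labelled array, at a fold of 0.404 after sham (-1.31 ± 0.21, adjusted p = 0.0018) and of 0.436 following CLP (-1.20 ± 0.21, adjusted p = 0.0013), and surgery did not move it past the threshold (0.055 ± 0.21 and 0.16 ± 0.21).

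In wild type Lox had 998, 993 and 950.0 after sham and 652, 752 and 847 after CLP, where all CLP arrays were lower, though not called. In knockout-labelled lung it had 610.0, 538 and 1325 after sham and 1393, 1176 and 1780.2 after CLP. Array 3 of knockout-labelled sham lay with the CLP arrays, and the other 2 sham arrays lay well below them. Lox rose after CLP (0.91 ± 0.26, adjusted p = 0.022), with 1.31 in the fit without that array, and was higher than in wild-type CLP (0.93 ± 0.26, adjusted p = 0.019). A second probe set rose alike (1.17 ± 0.26). Loxl1, its relative needed for elastic fibre upkeep, went the other way against wild-type CLP (-0.94 ± 0.25, adjusted p = 0.013), with -0.51 ± 0.27, not called, on its second probe set.

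Eln was lower than in wild-type CLP as well (-1.03 ± 0.33, adjusted p = 0.031), but its 3 knockout-labelled CLP arrays were far apart, at 858, 575 and 344, its second probe set was not called (-2.27 ± 0.97, adjusted p = 0.098), and its knockout-labelled sham arrays were at 878, 824 and 368. Fbln1, Fbln2, Fbln5 and Mfap5 were called in no comparison. Against wild-type CLP they lay between -0.38 ± 0.16 (Fbln5) and 0.068 ± 0.23 (Fbln2). After sham Fbln5 was at -0.54 ± 0.16, adjusted p = 0.054, with its 3 knockout-labelled arrays all below the wild-type arrays.

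After CLP in knockout-labelled lung 1 of 6 proteoglycan genes rose steeply, 2 fell and 3 were not called. That is 16.7% up and 33.3% down, where 11.4% and 19.9% of all genes were called up and down. Vcan encodes versican, the large hyaluronan-binding proteoglycan of provisional matrix. It had 35.8, 49.2 and 47.3 after sham and 40.5, 38.4 and 53.7 after CLP in wild type, and 41.1, 36.4 and 140.4 after sham and 255, 318 and 703 after CLP in knockout-labelled lung. The 6 wild-type arrays and 2 of the knockout-labelled sham arrays were alike and low, the 3 knockout-labelled CLP arrays were all higher than any other array, and array 3 of knockout-labelled sham lay between. Vcan rose after CLP by 2.61 ± 0.44 (adjusted p = 0.0014), 6.12-fold, with 3.20 in the fit without array 3 of knockout-labelled sham. It was 8.24-fold higher than in wild-type CLP (3.04 ± 0.44, adjusted p = 0.00045), where the wild-type response was 0.0005 ± 0.44. A second probe set was above the array median on the 3 knockout-labelled CLP arrays and array 3 of knockout-labelled sham alone, so it passed the filter only where it was high and its test adds nothing. The other 6 probe sets of Vcan were below the filter.

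The small leucine-rich proteoglycans bind collagen fibrils and set their width. Bgn had 3494, 3618 and 3539 after sham and 3705, 3592 and 3491 after CLP in wild type, and 3523, 3047 and 3346 after sham and 3243, 2725 and 2698 after CLP in knockout-labelled lung, so that the CLP groups did not overlap (-0.32 ± 0.080, adjusted p = 0.011). Fmod, fibromodulin, fell short of wild-type CLP by more (-1.04 ± 0.24, adjusted p = 0.0069), with signals of 126 to 147 against 60.9 to 71.2, though its only probe set without a cross-hybridisation suffix was not called (-0.46 ± 0.27). Dcn and Ogn, decorin and osteoglycin, fell after CLP in knockout-labelled lung (-0.37 ± 0.11 and -0.37 ± 0.10, adjusted p = 0.028 and 0.012) and did not pass the test against wild-type CLP (-0.017 ± 0.11 and -0.22 ± 0.10), and the second probe set of Ogn was not called for the fall (-0.40 ± 0.16, adjusted p = 0.072). The 3 knockout-labelled sham arrays of Dcn all lay above the wild-type sham arrays (0.26 ± 0.11, adjusted p = 0.19, not called). Lum, lumican, the neighbour of Dcn on chromosome 10, was called in no comparison (-0.41 ± 0.16 against wild-type CLP).

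Matricellular proteins act on cells more than they bear load. Tnn, which encodes tenascin-N (also called tenascin-W), was far lower in knockout-labelled lung after both operations. It had 394, 391 and 388 after sham and 383, 421 and 405 after CLP in wild type, and 71.1, 80.9 and 35.2 after sham and 48.0, 43.5 and 7.34 after CLP in knockout-labelled lung. The wild-type arrays lay close together and all 6 knockout-labelled arrays far below them, at a fold of 0.158 after sham (-2.66 ± 0.47, adjusted p = 0.0036) and of 0.0731 following CLP (-3.77 ± 0.47, adjusted p = 0.00016). Array 3 of knockout-labelled CLP, at 7.34, was below its array median, and without it the difference after CLP was -3.05. Array 3 of knockout-labelled sham, at 35.2, was below its array median of 38.1 too, so both folds include a signal that low. Tnn has 1 probe set on the array. Tnc, tenascin-C, was called in no comparison as deposited (0.33 ± 0.19 after CLP in knockout-labelled lung).

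Fn1, fibronectin, had 1832, 1656 and 1783 after sham and 1906, 1528 and 1878 after CLP in wild type, and 1072, 943 and 1488 after sham and 1533, 1696 and 2024 after CLP in knockout-labelled lung. Only the knockout-labelled sham group was low: it lay at -0.61 ± 0.16, adjusted p = 0.028 against wild-type sham, rose after CLP (0.60 ± 0.16, adjusted p = 0.013) and then differed from wild-type CLP by -0.018 ± 0.16. Its second, dimmer probe set was not called for either (0.060 ± 0.19 and 0.35 ± 0.19). Ccn5, a CCN family gene (also Wisp2) active in connective tissue, had 134, 133 and 118 after sham and 178, 150.3 and 166 after CLP in wild type, and 337, 182 and 132 after sham and 89.9, 54.7 and 31.6 after CLP in knockout-labelled lung. The knockout-labelled CLP arrays were below all others, and the change was -1.83 ± 0.34 (adjusted p = 0.0022), a fold of 0.281.

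Sparc, a collagen-binding protein, had 8479, 8945 and 9730.4 after sham and 9019.5, 8969 and 9765 after CLP in wild type, and 6622, 6591 and 7982 after sham and 7661, 6819.7 and 5563 after CLP in knockout-labelled lung. Its CLP groups did not overlap (-0.48 ± 0.11, adjusted p = 0.0060), but a second bright probe set gave -0.18 ± 0.089, not called. Npnt, nephronectin, an integrin ligand of basement membranes, was lower against wild-type CLP (-0.33 ± 0.11, adjusted p = 0.040), and its other 4 probe sets gave -1.12 to -0.38, all called. Postn, periostin, was called in no comparison (-0.16 ± 0.10 against wild-type CLP).

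Among the 8 fibroblast genes, 3 fell steeply after CLP in knockout-labelled lung (37.5%, against 19.9% of all genes) and 1 rose (12.5%, against 11.4%). After sham 2 growth factor receptor genes were called lower than wild type (25%, against 3.89%). Lrat, the enzyme that stores retinol as esters, had 158, 376 and 388 after sham and 294, 252 and 388 after CLP in wild type, and 463, 372 and 34.1 after sham and 26.1, 27.9 and 32.5 after CLP in knockout-labelled lung. Array 3 of knockout-labelled sham was as low as the CLP arrays, and the other 8 arrays were all higher than these 4. Lrat fell by 2.54 ± 0.71 (adjusted p = 0.019), with -3.70 in the fit without that array, and was at 0.104 times its level in wild-type CLP (-3.27 ± 0.71, adjusted p = 0.0050). Its second probe set gave -2.54 ± 0.57 and -2.88 ± 0.57, both called.

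Vgll3, a cofactor of TEAD transcription factors, had 354, 265 and 259.8 after sham and 267, 264 and 229 after CLP in wild type, and 538, 482 and 193 after sham and 104, 79.6 and 43.1 after CLP in knockout-labelled lung. The CLP arrays of the knockout-labelled group were the lowest of the 12, and its sham arrays included both the 2 highest and 1 low value. It fell by 2.32 ± 0.35 (adjusted p = 0.00078) and was at -1.78 ± 0.35, adjusted p = 0.0030 against wild-type CLP. Its other 2 probe sets fell after CLP too (-2.46 ± 0.39 and -1.18 ± 0.22, both called), but against wild-type CLP 1 of them gave -2.35, called, and the other -0.20, not called, having been higher than wild type after sham (0.80 ± 0.22, adjusted p = 0.045). Meox2, a homeobox gene of mesenchyme and endothelium, had 106, 101 and 139.8 after sham and 123, 126 and 89.5 after CLP in wild type, and 130.1, 106 and 185 after sham and 62.4, 41.3 and 48.8 after CLP in knockout-labelled lung. Its knockout-labelled CLP arrays were below all others, after a change of -1.39 ± 0.23 (adjusted p = 0.0011), and the call against wild-type CLP (-1.10 ± 0.23, adjusted p = 0.0036) was lost on its other probe set (-0.74 ± 0.37).

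Pdgfra and Pdgfrb encode the receptors for platelet-derived growth factors on fibroblasts, myofibroblast precursors and pericytes. Pdgfra had 2377, 2470.0 and 2271 after sham and 2237, 2232 and 2356 after CLP in wild type, and 1929, 1498 and 1755 after sham and 2353, 1908 and 2331 after CLP in knockout-labelled lung. It was low only in knockout-labelled sham (-0.46 ± 0.10, adjusted p = 0.015) and rose after CLP (0.35 ± 0.10, adjusted p = 0.024), with overlapping arrays. Its other 2 probe sets disagreed: 1 rose too (0.53 ± 0.15, called) and was higher than in wild-type CLP (0.66 ± 0.15, adjusted p = 0.0059), the other gave -0.21 ± 0.16, and neither was lower after sham (-0.14 and 0.34, not called). Pdgfrb was lower in knockout-labelled lung after sham (-0.47 ± 0.10, adjusted p = 0.016) and again following CLP (-0.61 ± 0.10, adjusted p = 0.0013), as was its second probe set (-0.55 and -0.62, both called). Pi16, a marker of fibroblasts around vessels, was lower against wild-type CLP (-0.93 ± 0.14, adjusted p = 0.00047), with signals of 48.8 to 56.0 against 100.1 to 105. Tcf21, a factor of lipid-storing lung fibroblasts, and Dpt, dermatopontin, were called in no comparison (0.17 ± 0.27 and 0.092 ± 0.12 against wild-type CLP).

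**Figure D4:**
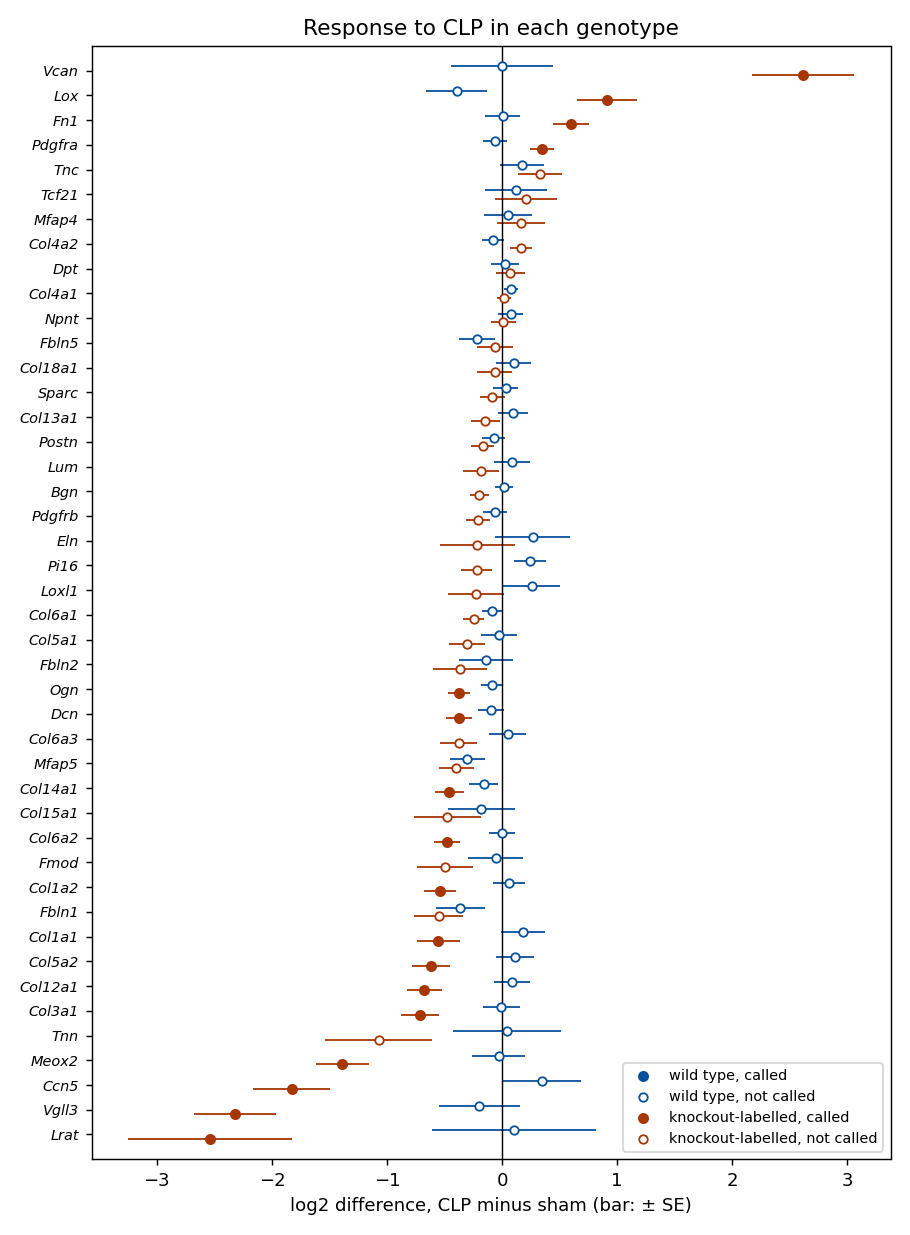
Points give the log2 difference, CLP minus sham, for each of 44 genes in wild-type (blue) and knockout-labelled (brown) lung, bars give ± SE, and filled points are called at an adjusted p under 0.05. No blue point is filled, 13 brown points are filled on the left of 0 and 4 on the right. With each array centred on its median 8 of the 13 lose their call.

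The difference between the 2 responses was called for Vcan (2.61 ± 0.63, adjusted p = 0.040), Ccn5 (-2.18 ± 0.48, adjusted p = 0.031), Vgll3 (-2.12 ± 0.50, adjusted p = 0.037) and Meox2 (-1.36 ± 0.32, adjusted p = 0.037). The call of Meox2 was lost on its other probe set (-1.13 ± 0.53, adjusted p = 0.22). Vgll3 was called on 1 further probe set (-2.37 ± 0.55, adjusted p = 0.035) but not on another (-1.01 ± 0.32, adjusted p = 0.090). Lox (1.30 ± 0.37, adjusted p = 0.069), Col12a1 (-0.76 ± 0.22, adjusted p = 0.067) and Lrat (-2.64 ± 1.01, adjusted p = 0.14) missed the threshold. The 4 genes were called in 2 (Vcan, Vgll3) or 3 (Ccn5, Meox2) of 12 runs with 1 array left out, with adjusted p up to 0.11, 0.079, 0.10 and 0.11 in turn, each without array 2 of wild-type CLP. Without any 1 of the 6 wild-type arrays, array 1 of knockout-labelled sham or array 2 of knockout-labelled CLP 0 genes were called, without array 2 of knockout-labelled sham only Meox2, without array 3 of knockout-labelled CLP only Ccn5, without array 1 of knockout-labelled CLP 9 genes, and without array 3 of knockout-labelled sham 13, among them Lox (1.71), Lrat (-3.80), Col3a1 (-0.88) and Fn1 (0.78).

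Leaving out 1 array at a time also ended calls in the other comparisons. For the knockout-labelled response, 9 of the 17 calls were left without array 2 of knockout-labelled sham (Col1a1, Col5a2, Col14a1, Lox, Dcn, Fn1, Pdgfra and Lrat lost theirs), 12 without its array 1 (Col1a1, Col14a1, Lox, Dcn and Lrat lost, Mfap4 gained for 13 in all), 13 without array 2 of knockout-labelled CLP (Col1a1, Col5a2, Col14a1 and Lrat), 12 without its array 3 (Col1a1, Col5a2, Lox, Dcn and Pdgfra lost, Col15a1 gained for 13 in all) and 16 without its array 1 (Pdgfra lost, while Col6a1, Mfap5, Bgn and Tnn gained a call for 20 in all). Without array 3 of knockout-labelled sham 25 were called: Col4a2, Col6a3, Fbln1, Mfap5, Loxl1, Fmod, Tnn and Tcf21 joined the 17. Col1a1 was also lost without array 1 of wild-type sham or any 1 of the wild-type CLP arrays. The highest adjusted p in these runs was 0.15 for Col1a1, 0.11 for Dcn, 0.098 for Pdgfra, 0.093 for Lox, 0.079 for Lrat, 0.068 for Col5a2, 0.068 for Col14a1 and 0.055 for Fn1. The 9 others, Vcan, Vgll3, Ccn5, Meox2, Col3a1, Col1a2, Col6a2, Col12a1 and Ogn, were called in all 12 runs.

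After sham, Fn1 lost its call without array 1, 2 or 3 of wild-type sham or array 1 or 2 of knockout-labelled sham (adjusted p up to 0.10), Pdgfra without array 1 or 2 of wild-type sham or array 2 of knockout-labelled sham (up to 0.066) and Pdgfrb without array 2 or 3 of wild-type sham (up to 0.073). The count was lowest, 5, without array 2 of wild-type sham, and rose to 12, 14 and 13 without array 3 of knockout-labelled sham, array 1 of knockout-labelled CLP and array 3 of knockout-labelled CLP. After CLP, Npnt, Col18a1, Eln and Lox lost their calls in some runs: all 4 when array 1 or array 2 of wild-type CLP was left out, or array 3 of knockout-labelled CLP, Npnt, Col18a1 and Eln without array 3 of wild-type CLP or array 2 of knockout-labelled CLP, and Npnt without any 1 of the wild-type sham arrays. Their adjusted p then reached 0.15, 0.13, 0.12 and 0.073. The other 23 of 27 calls after CLP held in all 12 runs.

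Genes that act on the matrix from outside the list moved in several ways. In the wild-type response 0 of them was called, where 1.1% of all genes were called up and 0.059% down. The wild-type CLP arrays all lay above sham for 6 of 19 tested TGF-beta genes (31.6%, background 10.9%) and all below for 1 (5.26%, background 12.9%). In the TGF-beta pathway, the main inducer of collagen genes, 3 of 19 tested genes rose and 3 fell after CLP in knockout-labelled lung, with a median of 0.016, where 11.4% and 19.9% of all genes were called and the median was -0.11. Thbs1 (thrombospondin, an activator of latent TGF-beta) rose by 3.04 ± 0.42 while the ligand gene Tgfb3 (-1.31 ± 0.16), the matricellular target Ccn2 (-1.38 ± 0.27) and the inhibitor Smad7 (-0.80 ± 0.16) fell (adjusted p = 0.00045, 0.00019, 0.0029 and 0.0038). The difference of the responses was called for Tgfb3 (-1.34 ± 0.22, adjusted p = 0.012) and Thbs1 (2.45 ± 0.59, adjusted p = 0.040). Among growth factors of fibroblasts 5 of 10 tested fell and 0 rose, with a median of -0.47: Pdgfb (-2.11 ± 0.21, adjusted p = 7.0e-05), Fgf18 (-1.28 ± 0.27), Fgf7 (-0.93 ± 0.23) and Pdgfd (-0.65 ± 0.20) had the smallest p. Pdgfd, a ligand of the receptor that Pdgfrb encodes, was also lower than in wild type after sham (-1.80 ± 0.20, adjusted p = 0.00013) and following CLP (-2.29 ± 0.20, adjusted p = 1.3e-05).

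In the list for collagen processing, 4 of 16 tested genes fell after CLP in knockout-labelled lung and 0 rose. They were P4ha1 (-0.65 ± 0.15) and Plod2 (-0.88 ± 0.22), which hydroxylate proline and lysine, Pcolce (-0.53 ± 0.14), which speeds the cutting of procollagen, and Sparcl1 (-0.24 ± 0.082). Sparcl1 is a relative of Sparc that was placed in this list. That is 25% of the list, near the 19.9% of all genes called down. Against wild-type CLP 5 were lower (31.2%, where 18.7% of all genes were) and 1, Plod1, higher (0.76 ± 0.15, adjusted p = 0.0033). In the basement membrane list 9 of 17 tested genes were lower and 2 higher against wild-type CLP (52.9% and 11.8%, where 18.7% and 13% of all genes were), with a median of -0.39, the laminin gene Lamc1 first among the lower ones (-0.87 ± 0.093, adjusted p = 5.4e-05), and it was lower after sham as well (-0.69 ± 0.093, adjusted p = 0.00049). Col4a6, another collagen IV chain gene, was higher in knockout-labelled lung after sham (2.27 ± 0.45, adjusted p = 0.0078) and CLP (2.18 ± 0.45, adjusted p = 0.0038). The hyaluronan list stood against this direction, with 5 of its 8 genes on the array above the filter. After CLP in knockout-labelled lung 4 of these 5 rose (80%, against 11.4% of all genes) and 0 fell. They were Cd44, the hyaluronan receptor (1.41 ± 0.18), Tnfaip6 (1.79 ± 0.32), the synthase Has1 (1.63 ± 0.33) and Itih4 (0.75 ± 0.18). The same 4 were higher than in wild-type CLP (80%, against 13%). In wild type the 5 had a median response of 0.45, and 0 were called. For 2 of them all wild-type CLP arrays lay above sham (40%, background 10.9%). The difference of the responses was called for 0 of the 5. Of 13 integrin genes tested, 4 fell after CLP in knockout-labelled lung (30.8%, against 19.9% of all genes). In the same comparison 1, Itgb8, rose (7.69%, against 11.4%), at 1.55 ± 0.43, adjusted p = 0.017. The smallest p among the falls was that of Itgb5 (-0.54 ± 0.10, adjusted p = 0.0022).

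By role, the mean log2 level of the 5 fibrillar collagen genes, relative to wild-type sham, was -0.23, -0.26 and -0.54 on the knockout-labelled sham arrays, then -0.61, -0.99 and -1.07 after CLP, and lay between -0.078 and 0.12 on the 6 wild-type arrays. The 8 fibroblast genes had 0.10, -0.17 and -0.42, then -0.81, -0.96 and -0.98, and the 6 other collagens -0.25, -0.28 and -0.45, then -0.63, -0.80 and -0.75. The elastic fibre genes had -0.16, -0.30 and -0.70 after sham, so that array 3 lay below all CLP arrays (-0.30, -0.53 and -0.61). The proteoglycan mean was 0.16, 0.13 and 0.16 after CLP, where Vcan was the only 1 of its 6 genes called higher.

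Markers of other cell types moved with these groups, and their part in the results was not tested. Of 6 macrophage markers 4 were higher in knockout-labelled than in wild-type CLP (Marco, Chil3, Mrc1 and Cd68), or 66.7%, against 13% of all genes. Their summed signal over all 6 was 1469 to 1792 in wild-type sham, 1712 to 1893 in wild-type CLP and 7646 to 8356 in knockout-labelled CLP. It was 1730.0 and 2025 on arrays 1 and 2 of knockout-labelled sham and 7878 on its array 3. Of 6 markers of mesothelium, the cells of the lung surface, which also make matrix, 4 were lower than in wild-type CLP (Msln, Upk3b, Lrrn4 and Upk1b). That is 66.7%, where 18.7% of all genes were lower. The sums of all 6 were 3685 to 4091, 3708 to 4070, 3057 to 4429 and 1920 to 3095 for wild-type sham, wild-type CLP, knockout-labelled sham and knockout-labelled CLP in turn. Of 6 cardiac muscle markers, known from the walls of pulmonary veins in mice, 5 were higher in knockout-labelled sham (83.3%, against 4.87% of all genes). The same 5 fell after CLP in knockout-labelled lung (83.3%, against 19.9%). The sums of all 6, in the same order, were 2479 to 3062, 2498 to 3186, 7812 to 12059 and 3215 to 6155. Of 6 smooth muscle markers 4 fell after CLP in knockout-labelled lung (66.7%, against 19.9% of all genes). Their sums were 3568 to 4859.6 after sham, 2925 to 3391 after CLP, 3141 to 3480 in wild-type sham and 3163 to 3291 in wild-type CLP. After sham all 6 were above wild type (median 0.41), though 0 were called. Against wild-type CLP 0 were called, where 18.7% of all genes were lower and 13% higher. Of 6 pericyte markers Abcc9 and Notch3 fell after CLP in knockout-labelled lung (33.3%, against 19.9%), with sums of 859.6 to 1041 after sham and 741 to 931 after CLP.

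Of 6 neutrophil markers 5 rose after CLP in wild type (83.3%, against 1.1% of all genes) and 4 in knockout-labelled lung (66.7%, against 11.4%). The sums of all 6 after sham and CLP were 8778 to 14909 and 32268 to 35040 in wild type. In knockout-labelled lung they were 10044 to 25078 and 38501 to 41841. Endothelial markers summed to 10314 to 11217 on wild-type and 7768 to 9233 on knockout-labelled arrays. Of these 6, Kdr and Tek were called lower than in wild-type CLP (33.3%, against 18.7% of all genes). Lung epithelium markers, which define the tissue, were all above the filter, and summed to 42081 to 44897 on wild-type and 36865 to 40026 on knockout-labelled arrays. Of these 6, Sftpc and Sftpb were lower in knockout-labelled lung after sham (33.3%, against 3.89% of all genes). The same 2 and Ager were lower after CLP (50%, against 18.7%). Adipocyte markers summed to 215 to 283 on wild-type and 76.5 to 199 on knockout-labelled arrays, lymphocyte markers to 299 to 425 and 239 to 622, skeletal muscle markers to 169 to 264 and 156 to 485, and Schwann cell and nerve markers to 466 to 553 and 343 to 429. None of the 6 cartilage markers passed the filter, and their summed signal was 40.3 to 104.6 over all 12 arrays.

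**Figure D5:**
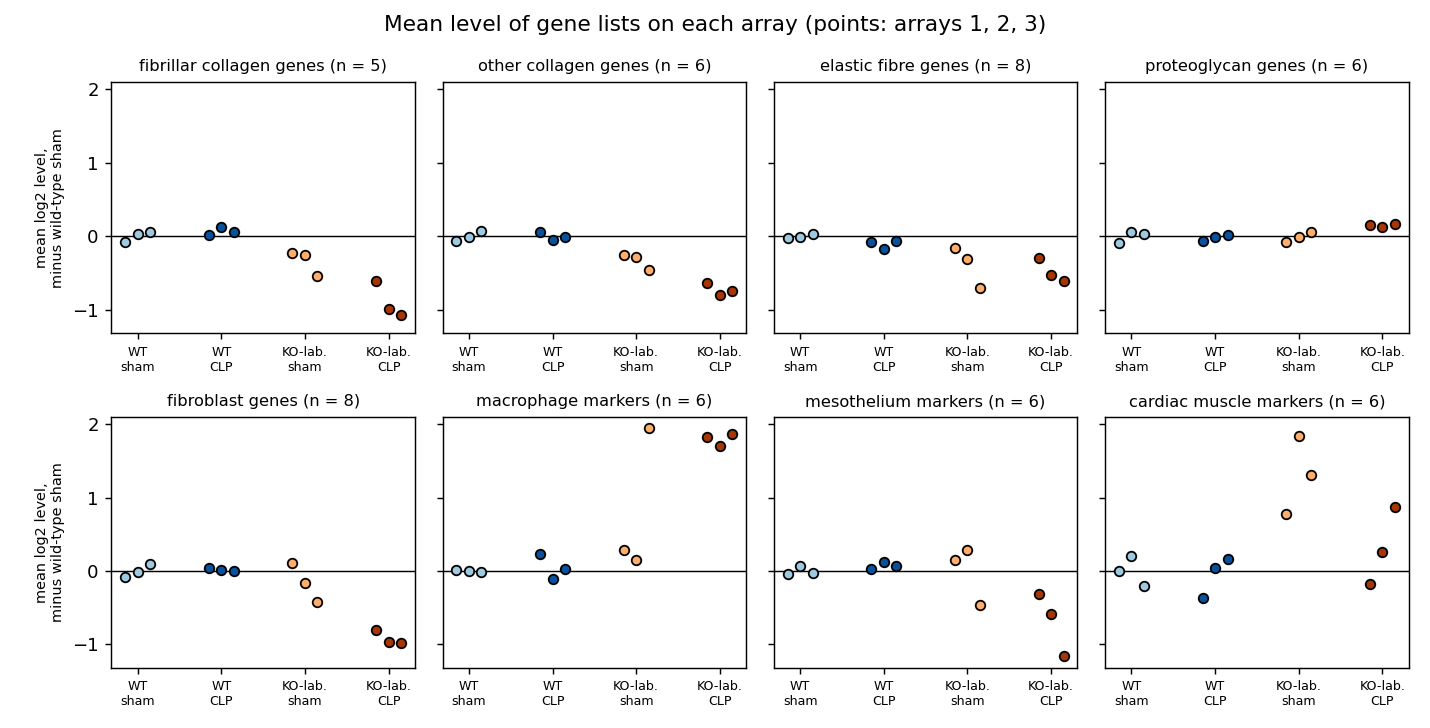
Points give, for each array, the mean log2 level of a gene list minus its wild-type sham mean, for 5 roles of matrix genes and 3 lists of cell type markers, with the number of genes in each title. WT is wild type and KO-lab. knockout-labelled. Fibrillar collagen genes reach -1.07 on a knockout-labelled CLP array, and macrophage markers lie between 1.71 and 1.94 on all knockout-labelled CLP arrays and array 3 of knockout-labelled sham.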

How the data were processed

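RNA of whole lung was measured on 12 Affymetrix arrays, 3 for each of 4 groups taken from the labels. The authors deposited 1 table of signal intensities on a linear scale, made with GCOS, MAS5 and Affymetrix Expression Console per the submitters' processing notes; versions are not given in the sources used here. The deposited intensities have the same trimmed mean on every array (150.0, with 2% trimmed at each end), and all sample columns were matched to labels.

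The values were used as deposited, as log2(intensity + 3.47), the pseudocount being 10% of the median of the array medians (34.7). A probe set was tested if 3 or more of the 12 arrays gave it a signal over their own median (24574 probe sets). 1 model of 4 group means was fitted in limma 3.58.1 (R 4.3.3, empirical Bayes with a trend), two-sided, with Benjamini-Hochberg adjustment over all tested probe sets and calls at 0.05. A gene was represented by its brightest probe set of 1 gene symbol. The fit was checked on simulated data. The number of arrays limits the precision.

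The genes, pathway lists and marker lists were chosen with earlier results of these data known, so they are no independent support. Signals of every array were printed, by rule, for up to 6 called rises and 6 called falls of largest size per comparison and the brightest gene of each role, and at most 4 genes of each pathway list were named per comparison. Alternatives covered scaling, pseudocount, filter, moderation, array weights, probe set choice, the samples in the model, a replicate block and leaving out each array. Replicate numbers did not pair the samples. Of 18 pairs of arrays with the same number in different groups 2 had deviations correlated above 0.1, and the range was -0.10 to 0.12. Gene start windows came from RefSeq (GRCm38.p6).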

Additional observations from a re-analysis of the deposited data

Results flagged for a closer look

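The response to CLP differed between genotypes for 4 genes, by the interaction term of the limma fit. The difference, knockout-labelled minus wild type on the log2 scale, was 2.61 for Vcan, -2.18 for Ccn5, -1.36 for Meox2 and -2.12 for Vgll3, with adjusted p of 0.040, 0.031, 0.037 and 0.037. Each was called in 2 or 3 of 12 runs with 1 array left out. The call of Meox2 also depended on the probe set. It was lost when probe sets with a cross-hybridisation suffix were excluded and when the probe sets of each gene were averaged. Quantile normalisation, which gives all arrays the same signal distribution, ended it too. Vcan, Meox2 and Vgll3 lost their calls with no filter, and Vcan and Vgll3 with no trend. Array 3 of knockout-labelled sham, which stands apart from its group, had the highest Vcan and the lowest Vgll3 signal of the sham arrays. Its part in these differences was not tested beyond the fit without it, in which all 4 were called.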

How the results depend on the processing

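The number of genes called depended on the setting most for the difference of the responses, where 4 were called as deposited: 1 with no filter, 2 with no trend, 20 with array weights and 0 to 13 with 1 array left out. For the knockout-labelled response (17 calls) array weights gave 28, a model of only the groups compared 4, and runs with 1 array left out 9 to 25. For the genotypes after sham (8 calls) centring on the array medians gave 15, centring on the median of the tested probe sets 14, array weights 21, and runs with 1 array left out 5 to 14. In the wild-type response, a model of only the groups compared gave 1 call. The causes were not tested. Array weights and the runs without array 3 of knockout-labelled sham were the settings that lowered the part of that array. The weights lowered the part of other arrays too. They were 0.19 for that array, 0.42 and 0.32 for arrays 1 and 3 of knockout-labelled CLP, and 1.14 to 1.96 for the others. For the genotypes after CLP (27 calls) the settings gave 25 to 32, and 23 to 29 with 1 array left out. The model of only the groups compared could not be applied to the difference of the responses. With the replicate number as a block (replicate block) 0, 18, 5, 9 and 27 genes were called in the wild-type response, the knockout-labelled response, their difference, and the genotypes after sham and after CLP, within 1.5 times the counts without it. None of the calls changed direction under any setting run. Signals near the array median, as for Vcan outside knockout-labelled CLP, limit how precisely a fold can be given.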
